A study of Homo sapiens with 12 samples.

Results

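The comparison described here sets CUTLL1 cells held for 48 h in a gamma-secretase inhibitor (GSI) against the same cells held for 12 h in its solvent. CUTLL1 is a line of malignant human T lymphoblasts, in which a rearranged NOTCH1 gene is active without ligand. The 3 libraries labelled GSI 48 h and the 3 labelled DMSO 12 h were taken, 6 of the 12 libraries in the series. They were compared over the 19281 of 62069 listed genes that had a normalised read count of at least 10 in at least 3 libraries. The inhibitor was Compound E at 1 µM and the solvent was DMSO, and all cells came from 1 unmodified line. The 6 other libraries carry the labels GSI 12 h and DMSO 48 h, 3 each. Those groups share either the agent or the time with each of the groups compared, and exchanging their labels would leave this contrast as it is.

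Gamma-secretase is the membrane protease that cuts NOTCH receptors and frees their intracellular part. That part moves to the nucleus, where it joins the DNA-binding factor RBPJ and a Mastermind co-activator on target promoters. In T-cell leukaemia the pathway drives HES and HEY repressors, the pre-T-cell receptor chain PTCRA and MYC, and MYC in turn promotes ribosome production and nucleotide synthesis. The contrast asks how far transcript levels moved between the earliest solvent samples and the longest inhibitor exposure. The groups differ in agent and in hours in culture, so an effect of the inhibitor and an effect of time cannot be told apart in it. In these bulk libraries, fewer cells of a type and less RNA per cell cannot be told apart either. The labels do not say whether replicates were separate cultures, so every p-value measures only the spread between these libraries, which may be technical.

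Recovered depth was 109616415 to 122490751 reads in the DMSO 12 h libraries and 73939612 to 133774239 in the GSI 48 h libraries. On the first principal component, which held 41.2% of the variance, the DMSO 12 h libraries lay at -65.0 to -39.1. The GSI 48 h libraries lay at 58.8 and 57.9 for numbers 1 and 3 but at 18.98 for number 2, the one nearest to the solvent side. Mitochondrial genes took 3.14 to 3.90% of the reads over all 12 libraries. PTPRC, ZAP70, TCF7 and CD4 were abundant in the 6 libraries compared, the lowest value being 20643 for PTPRC. Of these, only TCF7 and CD4 were among the markers set for T-lineage blasts, not all of which are described. NOTCH1, also a set marker, read 139715 to 207364. Other set markers were lower, CD7 at 5938 to 14071 and PTCRA at 700 to 4282. TAL1 was not kept by the filter, and LMO2 had a mean of 14.2 in DMSO 12 h and 2.88 in GSI 48 h. Before the results, a mismatch with the labels: NRARP, the strongest NOTCH1 target of the line, had 16831 to 25383 normalised reads in the libraries labelled GSI 12 h and 2340 to 3564 in those labelled DMSO 48 h, so the libraries with the solvent label were the lower. These 2 groups enter the fit through the estimate of the spread alone.

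Some promoters that hold a motif are shown first, since the gene groups below include targets of the factors named here. Genes of larger change, such as NRARP, HEY1 and RRP12, are not among those shown. The windows run from 250 bases before to 50 bases after the start site and come from RefSeq (GRCh38.p14), in which the letters of each motif were searched on both strands. HEY2 (chr6:125749382-125749681, plus strand) and HES5 (chr1:2530214-2530513, minus strand) had the largest changes among the NOTCH1 targets whose window holds TGGGAA, the core that RBPJ binds, given in capitals (TTCCCA on the opposite strand). MIR210HG (chr11:568408-568707, minus strand) is the hypoxia gene of largest change with ACGTG, the core of the hypoxia response element. RRP9 (chr3:51941855-51942154, minus strand) is the ribosome biogenesis gene of largest change with CACGTG, the E-box that MYC binds.
HEY2: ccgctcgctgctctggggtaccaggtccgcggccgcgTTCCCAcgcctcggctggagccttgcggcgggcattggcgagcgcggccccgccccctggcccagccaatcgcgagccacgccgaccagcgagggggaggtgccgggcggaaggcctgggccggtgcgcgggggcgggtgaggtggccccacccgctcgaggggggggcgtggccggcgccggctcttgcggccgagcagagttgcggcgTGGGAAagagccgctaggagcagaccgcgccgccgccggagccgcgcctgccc
HES5: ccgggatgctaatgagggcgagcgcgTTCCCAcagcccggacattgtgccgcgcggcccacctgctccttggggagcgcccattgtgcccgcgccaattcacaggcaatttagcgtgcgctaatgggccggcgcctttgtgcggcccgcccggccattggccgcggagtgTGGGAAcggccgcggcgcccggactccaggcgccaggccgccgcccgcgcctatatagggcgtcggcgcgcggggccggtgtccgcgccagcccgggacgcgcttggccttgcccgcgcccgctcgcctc
MIR210HG: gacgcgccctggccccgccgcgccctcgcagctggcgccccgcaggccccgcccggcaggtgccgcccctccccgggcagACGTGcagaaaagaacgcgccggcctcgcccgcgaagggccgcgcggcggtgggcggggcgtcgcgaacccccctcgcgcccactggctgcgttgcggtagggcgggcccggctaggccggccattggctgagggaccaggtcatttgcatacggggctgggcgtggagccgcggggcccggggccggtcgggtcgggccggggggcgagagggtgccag
RRP9: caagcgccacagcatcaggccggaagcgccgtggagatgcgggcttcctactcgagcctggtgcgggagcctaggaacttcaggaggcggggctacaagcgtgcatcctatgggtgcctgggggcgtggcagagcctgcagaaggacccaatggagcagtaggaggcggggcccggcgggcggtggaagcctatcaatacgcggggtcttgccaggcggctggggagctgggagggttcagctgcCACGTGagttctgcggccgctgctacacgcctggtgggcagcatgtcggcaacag
TGGGAA lay in 24.3% of all 27305 promoter windows and in 5 of the 13 windows matched to a NOTCH1 target, those of HES1, HES4, HES5, HEY2 and HEYL. ACGTG lay in 21.6% of all windows and in 15 of the 22 matched to the hypoxia list. CACGTG lay in 7.43% of all windows and in 12 of the 28 matched to ribosome biogenesis genes. The E-box letters contain ACGTG on both strands, so these 2 searches overlap. The shares over all windows include genes not tested here, and no share over the tested genes alone was taken. A match describes the letters in the window and does not show that a factor bound there.

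Transcript levels differed widely. With limma and Benjamini-Hochberg adjustment over all 19281 genes, 6602 genes passed an adjusted p under 0.05, which is 34.2% of those tested. Of these, 3056 (15.8% of genes tested) were higher and 3546 (18.4%) lower in GSI 48 h. Each later count of list members higher or lower is to be read against these shares. The 2 groups did not overlap for 6479 of the 6602, and for 9381 (48.7%) of all genes tested, against which each later mention of groups that do not overlap is to be read. Genes named below as the largest rises or falls were taken only where the groups did not overlap. For those genes the separation follows from the choice and is not a result. A difference of at least 2-fold was reached by 2044 genes, 10.6% of those tested, 1220 higher and 824 lower. At least 4-fold differences numbered 259 higher and 187 lower. The counts were smaller without single libraries, namely 4245 genes without GSI 48 h library 1, 4440 without DMSO 12 h library 2 and 4595 without GSI 48 h library 3. The split by direction depended on scaling: under the authors' size factors 46.3% of the passing genes were higher, and under upper-quartile scaling 62.9% were (4279 higher, 2525 lower). Upper-quartile scaling moved the median of all genes up by 0.12 on the log2 scale, from 0.0057 to 0.13.

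Protein-coding genes and long non-coding RNAs were split differently by direction. Of 13445 protein-coding genes, 2117 were higher and 3052 lower. Of 2984 long non-coding RNAs, 546 were higher and 228 lower, and 335 of the higher and 126 of the lower ones differed at least 2-fold. Under upper-quartile scaling the protein-coding split turned to 3089 higher and 2152 lower, whereas the long non-coding split stayed on the same side at 687 and 176.

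**Figure D1:**
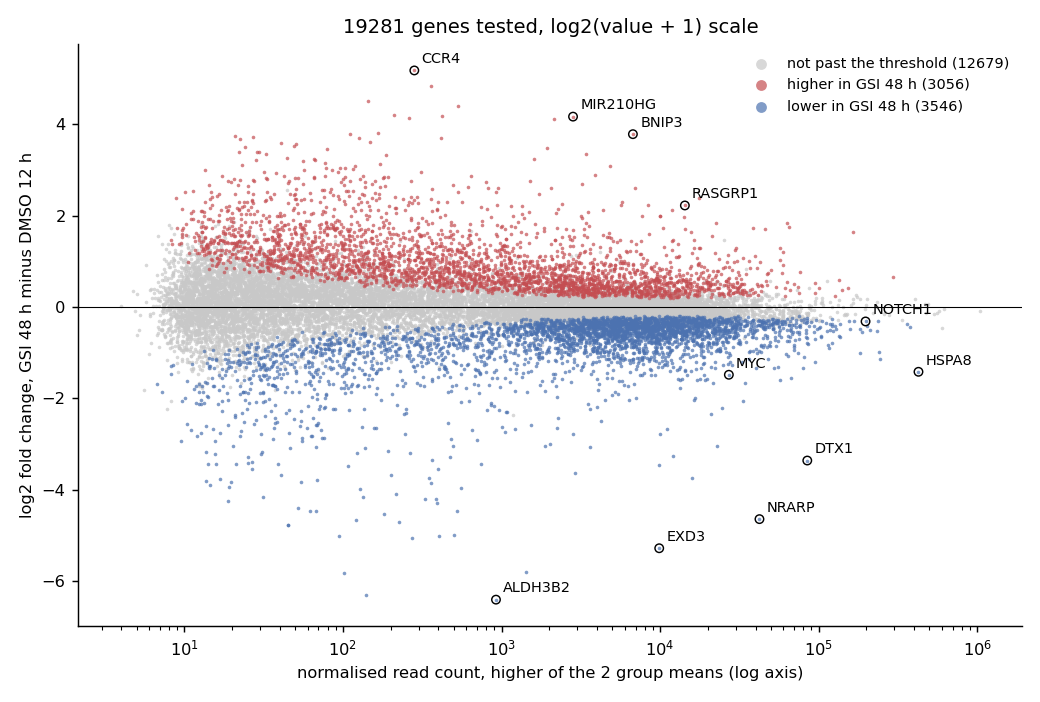
Each point is 1 of the 19281 genes tested, with the higher of the group mean normalised read counts on a log x axis and the log2 fold change of GSI 48 h over DMSO 12 h on the y axis. Red points (3056) were higher and blue points (3546) lower with limma at an adjusted p under 0.05. NRARP and DTX1 lie far below the other genes of their abundance, and CCR4 lies highest of the genes circled.

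Targets of NOTCH1 were taken first. Of the 16 on the list, 15 were lower in GSI 48 h and HEYL did not pass. Their median log2 fold change was -1.66, where the median of all genes was 0.0057. NRARP (ENSG00000198435), a feedback inhibitor that binds the NOTCH nuclear complex, had normalised read counts of 36766, 49346 and 40943 in the DMSO 12 h libraries and 1995, 1776 and 1333 in the GSI 48 h libraries. The lowest solvent library lay far above the highest inhibitor library, and the log2 fold change was -4.65 ± 0.19 (SE; adjusted p = 2.64e-08). DTX1 (ENSG00000135144), which encodes a ubiquitin ligase of the pathway, went from 76829, 94663 and 82974 to 7426, 8123 and 9186. Its groups were as cleanly apart, with a log2 fold change of -3.36 ± 0.14 (adjusted p = 2.64e-08), the same smallest adjusted p as NRARP among all genes.

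The HES and HEY genes encode the repressors that carry much of the NOTCH response. HES5 (ENSG00000197921) read 700, 1145 and 1178 in solvent and 171, 140 and 168 in inhibitor, a fall of 2.62 ± 0.21 on the log2 scale. HES4 read 24428, 28084 and 20874 against 5496, 5295 and 4956, with a log2 fold change of -2.21 ± 0.22. HES1 moved least of these, from 4715, 4895 and 4382 to 2061, 2430 and 2576 (log2 fold change -0.99 ± 0.19, adjusted p = 0.0015). None of these 3 genes overlapped between groups. HEY1 was scarce, at 135, 224 and 186 against 2.55, 10.4 and 10.6 (log2 fold change -4.52 ± 0.48). HEY2 read 45.996, 99.9 and 45.97 against 8.91, 8.91 and 5.32 (log2 fold change -2.83 ± 0.48). Both rest on few reads in the inhibitor libraries, so their folds carry counting error. HEYL was low in both groups, at 16.8, 24.98 and 20.3 against 22.9, 16.3 and 18.6 (log2 fold change -0.09 ± 0.38, adjusted p = 0.873).

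Targets that act in T-cell growth fell without overlap between groups. PTCRA, the chain that pairs with the T-cell receptor beta chain in the pre-T-cell receptor, read 3396, 4282 and 3152 against 700, 846 and 728 (log2 fold change -2.24 ± 0.21). MYC (ENSG00000136997), the growth regulator, read 25699, 29455 and 26307 against 8180, 10756 and 10346. The lowest solvent library lay above the highest inhibitor library, and the log2 fold change was -1.48 ± 0.12 (adjusted p = 5.99e-06). NOTCH3, a second receptor of the family and itself a target, read 59910, 59509 and 81302 against 21766, 17268 and 30048 (log2 fold change -1.56 ± 0.20). CR2, a complement receptor, and SHQ1, an assembly factor for small nucleolar ribonucleoproteins, had the same log2 fold change of -1.66, with SE of 0.30 and 0.13. IGF1R, a growth factor receptor, fell by 0.60 ± 0.09 on the log2 scale.

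Calls for IL7R and NOTCH1 were the least firm of the list. IL7R, the interleukin 7 receptor, read 37141, 29931 and 42995 against 22088, 28777 and 24896 (log2 fold change -0.53 ± 0.18, adjusted p = 0.0393), so the groups came close to touching. NOTCH1 (ENSG00000148400) read 207364, 198895 and 186896 against 139715, 155797 and 183726 (log2 fold change -0.32 ± 0.11, adjusted p = 0.0374), with GSI 48 h library 3 just under the solvent range. Under upper-quartile scaling neither passed, at adjusted p of 0.12 for IL7R and 0.187 for NOTCH1, and without GSI 48 h library 1 the values were 0.143 and 0.162. Both calls were lost in further settings. Among these were limma-voom for IL7R (adjusted p = 0.0509) and edgeR for NOTCH1 (adjusted p = 0.0635).

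**Figure D2:**
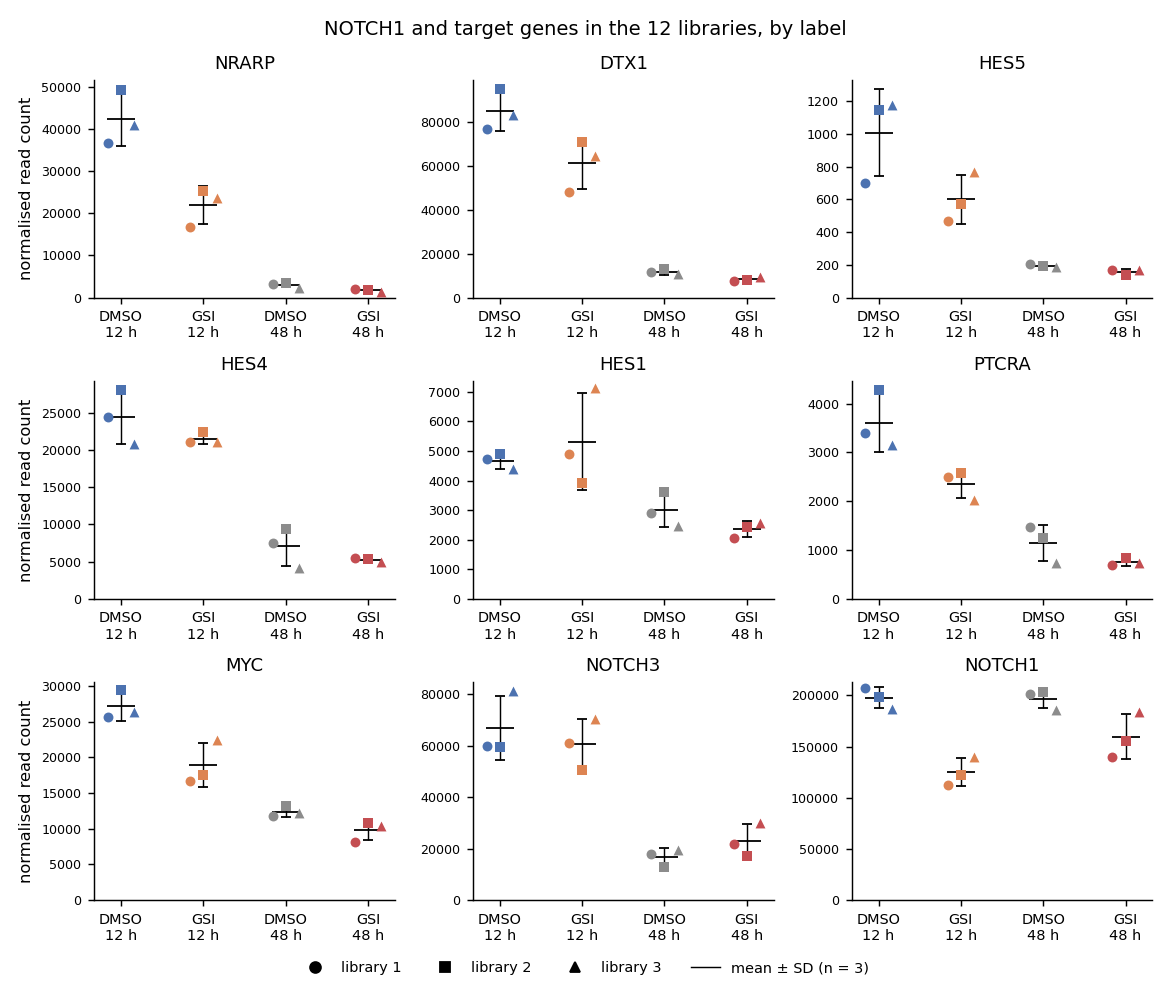
Normalised read counts on linear axes from 0 for NOTCH1 and 8 target genes in all 12 libraries, grouped by label, with the library number as the marker shape and bars for mean ± SD (n = 3). The GSI 48 h libraries sit below every DMSO 12 h library for all 8 target genes and, by little, for NOTCH1. For the 8 targets the libraries labelled DMSO 48 h sit nearer to GSI 48 h than those labelled GSI 12 h do. For NOTCH1 they sit at the level of DMSO 12 h.

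Other parts of the pathway did not follow the targets. Of 21 genes for ligands, the nuclear complex and gamma-secretase, 6 were higher and 3 lower, with a median log2 fold change of 0.04. Among all genes tested 15.8% were higher and 18.4% lower. MAML2, a Mastermind co-activator, rose from 8.85, 10.99 and 7.96 to 45.8, 30.4 and 78.5, with every inhibitor library above every solvent library (log2 fold change 2.26 ± 0.37, adjusted p = 0.00064). ADAM10, the protease that cuts NOTCH before gamma-secretase does, rose by 0.77 ± 0.15 on the log2 scale, and SPEN, a co-repressor that works with RBPJ, fell by 0.40 ± 0.08. MFNG, which adds sugars to NOTCH, did not pass (adjusted p = 0.0596). The 6 higher genes became 3 when GSI 48 h library 1, GSI 48 h library 3 or DMSO 12 h library 2 was left out.

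The steepest falls outside the target list were taken only from genes whose groups did not overlap. EXD3, which encodes a protein with an exonuclease domain, read 7963, 12841 and 8827 against 243, 256 and 242 (log2 fold change -5.28 ± 0.23, adjusted p = 3.52e-08). ALDH3B2, an aldehyde dehydrogenase, read 798, 1108 and 863 against 7.64, 17.8 and 6.65 (log2 fold change -6.41 ± 0.42), the largest fall by the naming rule. ACY3, an aminoacylase, ended at 1.27, 1.48 and 0 from 83.1, 123 and 99.0, and no fold is given because so few reads were left. TBX18, a T-box transcription factor, read 1797, 1523 and 977 against 19.1, 23.01 and 30.6 (log2 fold change -5.81 ± 0.34). RGS6, CPA4, IGLL1, ATP9A and ATP2B2 had log2 fold changes of -5.06, -5.01, -4.71, -4.30 and -4.21, and all 5 had means of at least 100 in solvent and under 20 in inhibitor. IGLL1 encodes part of the surrogate light chain of immature B cells, RGS6 a regulator of G-protein signalling and ATP2B2 a calcium pump of the plasma membrane.

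Among genes with a mean of at least 10000, the largest falls beside those of NRARP and DTX1 were of WNK2, BMP4, MYO7B and CCNI2. WNK2, a kinase, read 11953, 20016 and 15582 against 1315, 1110 and 1037 (log2 fold change -3.75 ± 0.21). BMP4, a secreted growth factor, read 9947, 13192 and 13301 against 1722, 1257 and 919 (log2 fold change -3.26 ± 0.24). MYO7B, a myosin, and CCNI2, a cyclin I relative, fell by 3.04 ± 0.16 and 2.67 ± 0.25 on the log2 scale. These 4 genes, too, could be named only because their groups did not overlap.

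The GIMAP family, small GTPases that support lymphocyte survival, was chosen for description after its values were seen. All 6 kept members were lower in GSI 48 h, with a median log2 fold change of -2.15. GIMAP5 read 3602, 4677 and 2554 against 437, 421 and 403 (log2 fold change -3.06 ± 0.25). GIMAP7 read 1717, 2762 and 1178 against 205, 239 and 198 (log2 fold change -3.05 ± 0.32). The inhibitor libraries were tightly grouped for both, with the lowest solvent library far above them. GIMAP6, GIMAP1 and GIMAP2 had log2 fold changes of -2.03, -1.86 and -1.55, and GIMAP4, at 12.4 to 21.98 in solvent, fell by 2.28 ± 0.62. The genes lie side by side on 1 chromosome, so they need not be independent of one another, and the letters TGGGAA were in the windows of 2 of the 6.

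Genes for making ribosomes fell as a block. All 33 kept genes of the ribosome biogenesis list were lower (18.4% of all genes tested were). Their median log2 fold change was -1.17, and 23 of them fell at least 2-fold. RRP12 (ENSG00000052749), which helps export pre-ribosomes, read 6213, 7913 and 7169 against 1555, 2133 and 1697 (log2 fold change -1.99 ± 0.16, adjusted p = 4.9e-06). MYBBP1A, a nucleolar regulator, read 17566, 20717 and 18347 against 5967, 7552 and 6732 (log2 fold change -1.49 ± 0.14). UTP20, part of the machine that processes the small subunit RNA, fell by 1.26 ± 0.11 on the log2 scale. RRP9, whose promoter is shown above, read 6287, 8004 and 6207 against 1878, 2540 and 1955 (log2 fold change -1.69 ± 0.18). The abundant nucleolar proteins NPM1 and NCL fell. NPM1 went from 157876, 206034 and 180759 to 75112, 100762 and 93755, and NCL from 210663, 262788 and 250486 to 107824, 141158 and 116084. No solvent library overlapped an inhibitor library for these 6 genes, of which RRP9, NPM1 and NCL were chosen after their values were seen. The log2 fold changes of the list ran from -1.99 to -0.50, and the count of 33 held under every alternative within 1.5 times.

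The polymerases that transcribe ribosomal and transfer RNA followed, with 20 of 24 subunits and factors lower (median log2 fold change -0.63). POLR1A, the largest subunit of RNA polymerase I, read 17506, 19483 and 18600 against 7757, 9811 and 8735 (log2 fold change -1.08 ± 0.11). POLR1C, shared by polymerases I and III, and POLR3D, of polymerase III, fell by 1.38 ± 0.16 and 0.92 ± 0.11 on the log2 scale. The promoter factors TAF1B and TAF1C did not pass, at adjusted p of 0.514 and 0.325. The host transcripts of small nucleolar RNAs, which guide ribosomal RNA modification, were lower in 12 of 15 cases (median -0.61), among them SNHG17, SNHG15 and SNHG7 at log2 fold changes of -1.09, -1.01 and -0.96. SNHG6 and SNHG9 did not pass (adjusted p = 0.119 and 0.188).

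Nucleotide and polyamine synthesis genes were lower in 18 of 25 cases (median -0.63). PFAS and ATIC, enzymes of purine synthesis, fell by 1.05 ± 0.11 and 0.99 ± 0.13 on the log2 scale, and CAD, which starts pyrimidine synthesis, read 26742, 29505 and 30034 against 14764, 16736 and 15674 (log2 fold change -0.87 ± 0.09). All CAD inhibitor libraries lay well below the solvent libraries. The polyamine enzymes SRM and ODC1, chosen after their values were seen, fell by 1.78 ± 0.27 and 1.33 ± 0.22. IMPDH1 and SHMT1 did not pass (adjusted p = 0.114 and 0.0917).

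Translation factors were lower in 14 of 19 cases (median -0.58). EIF4G1, the scaffold of the cap-binding complex, read 61000, 75150 and 73198 against 33508, 40344 and 35425 (log2 fold change -0.94 ± 0.13), and EIF3B and EIF3A, subunits of the initiation factor EIF3, fell by 0.87 and 0.55. EEF2, the translocation factor, overlapped between groups, at 137891, 148278 and 151896 against 123553, 105223 and 172233 (adjusted p = 0.538). Aminoacyl-tRNA synthetases were less uniform, with 7 of 20 lower (median -0.27). QARS1 was higher, a call lost without DMSO 12 h library 1 or 2 or GSI 48 h library 1 or 3. FARSB, FARSA and VARS1 had log2 fold changes of -1.08, -0.88 and -0.95, and NARS1 and HARS1 did not pass (adjusted p = 0.117 and 0.0666).

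Chaperones fell in 16 of 22 cases (median -0.79). HSPD1 and HSPE1, the chaperonin pair of mitochondria, read 76717, 108088 and 97859 against 36386, 51228 and 35014 and 17434, 26870 and 22780 against 8020, 11976 and 6896, with log2 fold changes of -1.21 ± 0.17 and -1.34 ± 0.21. HSP90AB1 read 203308, 257191 and 268856 against 98036, 133568 and 101559 (log2 fold change -1.13 ± 0.15). The groups did not overlap for these 3 genes. HSPA8, the constitutive HSP70 and chosen after its values were seen, read 409486, 475977 and 393719 against 141540, 242464 and 117041, so that GSI 48 h library 2 stood well above numbers 1 and 3. HSPA5, the chaperone of the endoplasmic reticulum, and HSP90AA1 overlapped between groups and did not pass (adjusted p = 0.0781 and 0.0603).

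Structural ribosomal proteins were examined by symbol after the data were seen. Of 84 cytosolic ribosomal protein genes, 60 were lower, but the median log2 fold change was only -0.33, and the count dropped to 33 without GSI 48 h library 1, 35 without DMSO 12 h library 2 and 34 under upper-quartile scaling. Of 75 mitochondrial ribosomal protein genes, 61 were lower (median -0.54). Proteasome subunits were lower in 18 of 36 cases (median -0.43), a count that fell to 5 without GSI 48 h library 1 or library 3, to 7 and 8 without DMSO 12 h library 2 or 3, and to 9 under upper-quartile scaling. Nuclear genes for the respiratory chain were lower in 9 of 22 cases (median -0.30), led by CYC1, cytochrome c1, at 13978, 16917 and 14323 against 6978, 8475 and 6860 (log2 fold change -1.02 ± 0.13). Ribosomal protein genes, HSP90AB1, HSPA8 and NPM1 have processed pseudogenes with which the counting could share reads, so their values carry that uncertainty. In the lists of NOTCH1 targets, ribosome biogenesis, polymerases, translation factors, small nucleolar RNA hosts, ribosomal proteins, proteasome and respiratory chain, the number of higher genes was 0 in limma, also without adjustment at 0.05, and 0 in edgeR and DESeq2. Among nucleotide synthesis genes and among chaperones 1 gene each was higher before adjustment at 0.05, and 0 were by edgeR or DESeq2.

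**Figure D3:**
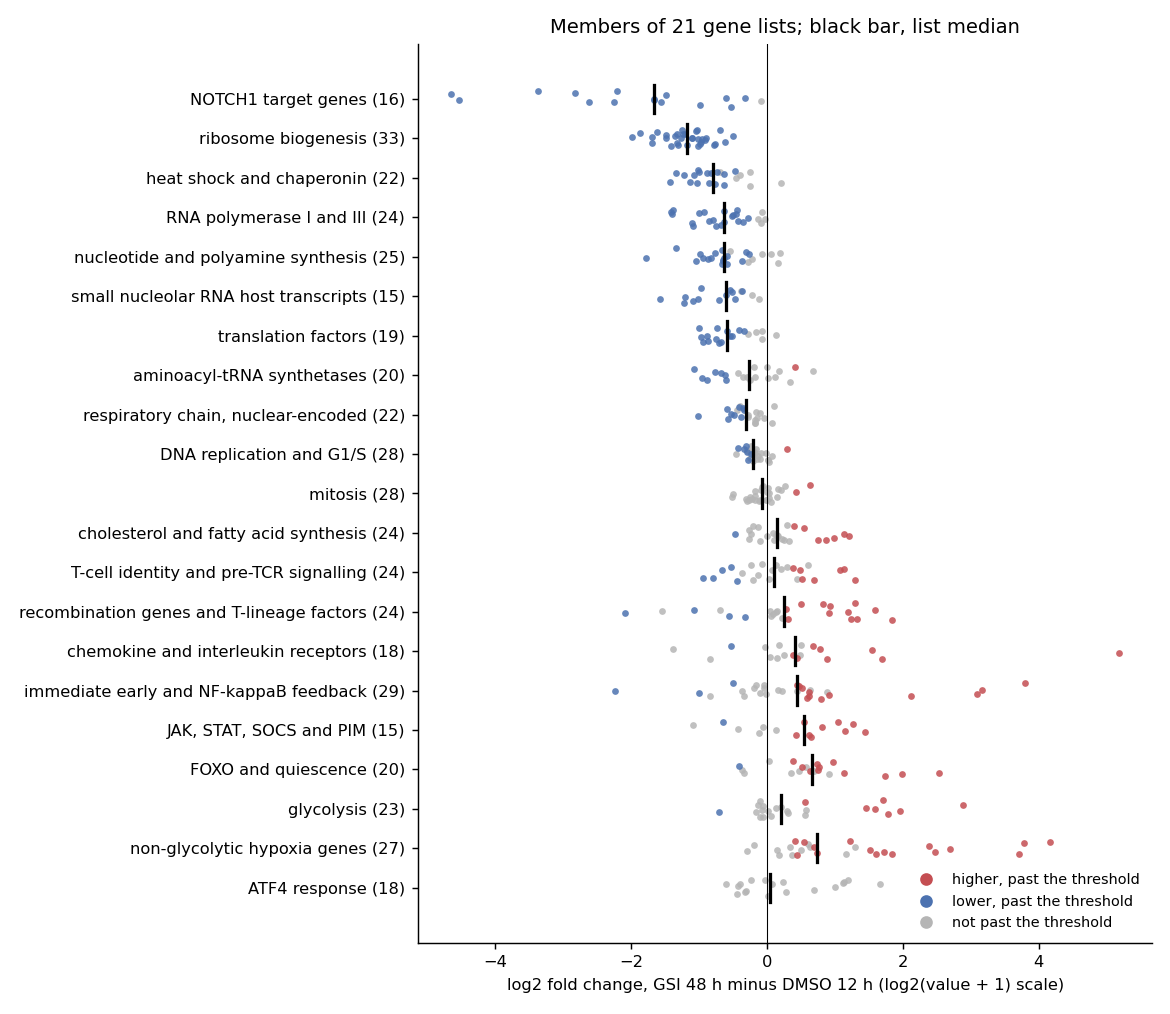
Log2 fold changes (x axis, log2(value + 1) scale) of the kept members of 21 gene lists, 1 point a gene, with the number of members in brackets and a black bar at the list median. Blue and red points passed limma at an adjusted p under 0.05. The medians of the NOTCH1 targets (-1.66) and ribosome biogenesis (-1.17) lie farthest to the left, and that of the non-glycolytic hypoxia genes (0.74) farthest to the right.

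Genes known to respond to low oxygen rose in 16 of 27 kept cases outside glycolysis (15.8% of all genes tested were higher), and the median log2 fold change was 0.74. By limma 0 were lower, also at an unadjusted threshold of 0.05 and by edgeR or DESeq2. MIR210HG (ENSG00000247095), the host transcript of miR-210 whose promoter is printed above, read 144, 78.9 and 160 against 5249, 890 and 2337 (log2 fold change 4.17 ± 0.56, adjusted p = 0.000176). BNIP3, which marks mitochondria for removal, read 405, 384 and 473 against 10874, 2692 and 6655 (log2 fold change 3.79 ± 0.55), and its relative BNIP3L read 3287, 2728 and 3256 against 24826, 8953 and 19047 (log2 fold change 2.39 ± 0.38). In all 3 genes every inhibitor library was above every solvent library, with library 2 the lowest of the inhibitor libraries. ADM, the peptide hormone adrenomedullin, read 50.4, 12.99 and 13.3 against 920, 116 and 214 (log2 fold change 3.71 ± 0.75).

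The rise was uneven among both genes and libraries. PLOD1 and KDM4B did not pass (adjusted p = 0.061 and 0.11). VEGFA, CA9 and HK2, which are also known to respond to low oxygen and were chosen after their values were seen, did not pass: VEGFA read 8385, 10580 and 7614 against 9950, 3125 and 11904, CA9 4.42, 0.999 and 4.42 against 17.8, 2.97 and 10.6 and HK2 9355, 13426 and 12829 against 14827, 6670 and 13215. The median of the list, taken as log2(value + 1) less each gene's mean over the 12 libraries, was 0.82 and 0.49 in GSI 48 h libraries 1 and 3 but -0.16 in library 2, and -0.61 to -0.59 in the DMSO 12 h libraries. Fewer genes passed on leaving out 1 library: 9 without GSI 48 h library 1 or 3, and 10 without DMSO 12 h library 2 or 3. The sensors and factors themselves moved in both directions: EPAS1, which encodes HIF-2 alpha, read 1818, 2776 and 1029 against 411, 586 and 462 (log2 fold change -1.85 ± 0.40), ARNT, the partner of the alpha subunits, rose by 0.55 ± 0.09, and EGLN2 and HIF1AN did not pass (adjusted p = 0.12 and 0.143).

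Glycolysis showed a narrower rise, with 7 of 23 genes higher and SLC16A1 lower (median 0.20), and 4 higher without GSI 48 h library 1. PFKFB4, which sets the level of a glycolytic activator, read 461, 322 and 392 against 8074, 1295 and 2250 (log2 fold change 2.88 ± 0.58). SLC2A3, a glucose transporter, read 4029, 2887 and 3171 against 16499, 7078 and 18844 (log2 fold change 1.97 ± 0.37). Neither overlapped, and GSI 48 h library 2 was again the lowest of its group for both. SLC16A1, a lactate carrier known as a MYC target, fell by 0.71 ± 0.14 on the log2 scale. PGK1 and GPI, enzymes of the pathway's core, overlapped between groups and did not pass (adjusted p = 0.16 and 0.185). PGK1 read 66163, 75316 and 70607 against 166484, 68174 and 102030. Both were named as genes that did not pass, so they do not describe the other core enzymes.

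**Figure D4:**
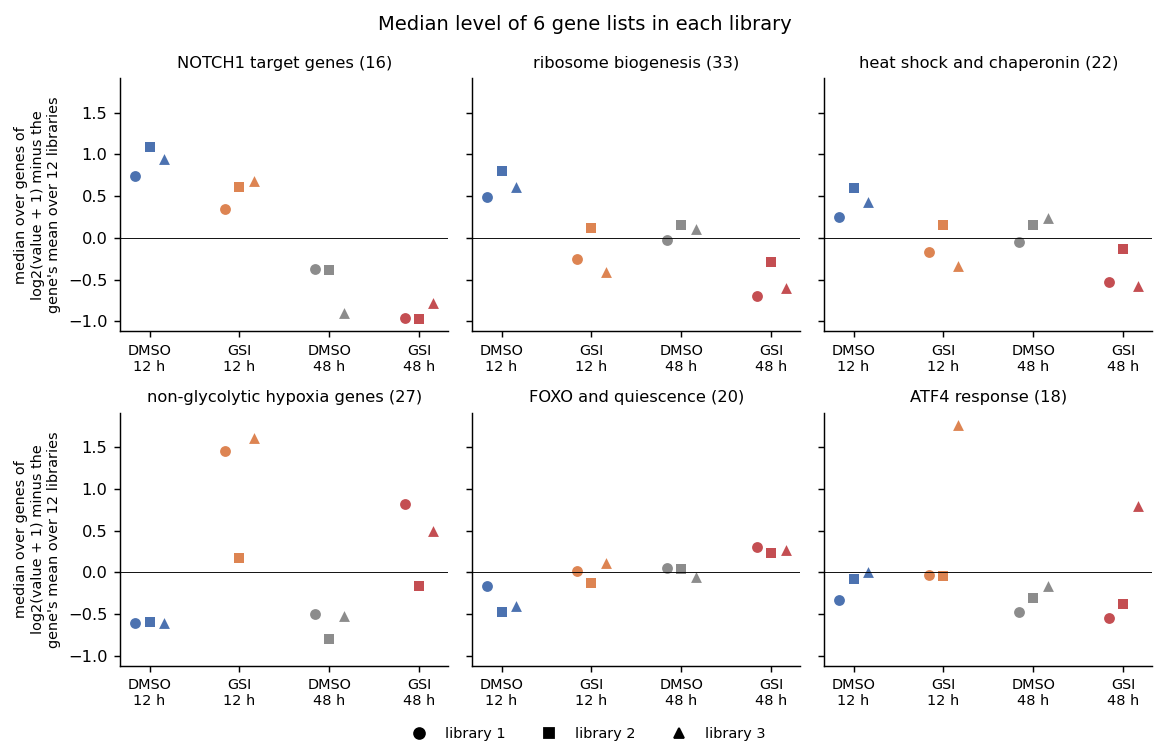
Median over each list of log2(value + 1) minus the gene's mean over the 12 libraries (y axis), by labelled group (x axis, colour) and library number (marker shape). NOTCH1 targets are high in DMSO 12 h and low in GSI 48 h and DMSO 48 h, hypoxia genes are high in libraries 1 and 3 of GSI 12 h (1.46 and 1.61) and of GSI 48 h (0.82 and 0.49) and lower in library 2 of each, and the ATF4 list is high in the libraries numbered 3 of both GSI groups.

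Cell cycle genes moved little next to the growth genes. Of 28 genes of DNA replication and the G1/S step, 6 were lower and E2F2 higher (median -0.21), where 18.4% of all genes tested were lower. The lower count moved with the libraries and the scaling, at 0 without GSI 48 h library 1, 1 without DMSO 12 h library 2 or 3, 3 without GSI 48 h library 3 and 1 under upper-quartile scaling. GINS2, a replication factor, read 9649, 11349 and 12804 against 7634, 9239 and 8270 (log2 fold change -0.42 ± 0.12), and SLBP, which binds histone mRNA, fell by 0.27 ± 0.08. Without GSI 48 h library 1 neither passed (adjusted p = 0.0689 and 0.0657), and E2F2 did not without DMSO 12 h library 2 (adjusted p = 0.064). Of 28 mitosis genes 2 were higher, CDC25C by 0.63 ± 0.11 and TTK by 0.43 ± 0.10 on the log2 scale. PLK1 and CCNA2 overlapped between groups (adjusted p = 0.112 and 0.126). The median of the mitosis list was -0.07 and turned to 0.06 under upper-quartile scaling. Taken per library against each gene's mean over the 12 libraries, it was -0.15, 0.21 and -0.27 in GSI 48 h libraries 1, 2 and 3. In the DMSO 12 h libraries it was 0.10, -0.12 and 0.07.

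Cyclins of the D type and their inhibitors moved more. CCND1, cyclin D1, was scarce and read 529, 522 and 370 against 57.3, 52.7 and 34.6 (log2 fold change -3.28 ± 0.24, adjusted p = 2.40e-06). CDK4, its kinase, fell by 0.61 ± 0.11. CDKN1C, a kinase inhibitor, read 17.7, 34.97 and 7.07 against 81.5, 66.1 and 75.8 (log2 fold change 2.10 ± 0.43), whereas CDKN1A, another inhibitor of the same family and chosen after its values were seen, read 410, 352 and 238 against 113, 194 and 118 (log2 fold change -1.23 ± 0.26). The 3 genes with values given in full did not overlap between groups. In all, 3 of the 11 genes were higher (5 under upper-quartile scaling) and 4 lower, and CDK2 and SKP2 did not pass (adjusted p = 0.0791 and 0.0563).

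Genes linked to FOXO factors and quiescence rose in 11 of 20 cases (median 0.66). TOB1 was lower, a call lost in edgeR and limma-voom, with no filter on low values and under upper-quartile scaling. It was also lost without DMSO 12 h library 1 or 2, GSI 48 h library 1 or 3, DMSO 48 h library 1 or 2, or the 4 libraries numbered 2. BTG2, an antiproliferative gene that p53 also induces, read 2678, 2544 and 2265 against 12745, 7843 and 9572 (log2 fold change 1.98 ± 0.16, adjusted p = 3.71e-06). CCNG2, a cyclin that restrains growth, read 3881, 2854 and 2733 against 9768, 9350 and 12370 (log2 fold change 1.74 ± 0.18). Every inhibitor library was above every solvent library for both. PIK3IP1, an inhibitor of PI3 kinase chosen after its values were seen, read 149, 162 and 104 against 1545, 367 and 862 (log2 fold change 2.53 ± 0.43), with library 2 the lowest of the inhibitor libraries. CDKN2D rose by 0.77 ± 0.13, and KLF3 and BTG1 did not pass (adjusted p = 0.0531 and 0.0574).

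T-cell identity genes split by direction, with 7 of 24 higher and 5 lower (median 0.10), beside 15.8% and 18.4% of all genes tested. PTPRC, the CD45 phosphatase, read 27356, 20643 and 21521 against 56775, 55889 and 57388 (log2 fold change 1.30 ± 0.10, adjusted p = 2.63e-06). The inhibitor libraries were nearly equal to one another and above the solvent range. CD7, an early T-lineage surface protein, read 10992, 14071 and 10534 against 6305, 6205 and 5938 (log2 fold change -0.94 ± 0.14), and ZAP70, the kinase of the T-cell receptor, read 126432, 126875 and 109279 against 73812, 64411 and 71078 (log2 fold change -0.79 ± 0.11). Neither overlapped between groups. The higher count was 4 without DMSO 12 h library 2 or GSI 48 h library 3. CD4 and LAT did not pass (adjusted p = 0.0778 and 0.0806).

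Transcription factors of the T lineage and the recombination genes were higher in 12 of 24 cases and lower in 4 (median 0.25). GATA3, needed for early T-cell commitment, read 11496, 8260 and 9678 against 22360, 20626 and 23653 (log2 fold change 1.19 ± 0.11). TOX, a factor of thymocyte selection, read 13480, 10192 and 13278 against 28762, 27936 and 33483 (log2 fold change 1.29 ± 0.13), and TOX2 rose by 1.84 ± 0.20. For GATA3 and TOX every inhibitor library was above every solvent library. RAG1, the recombinase gene, and ID1, an inhibitor of E proteins, were chosen after their values were seen. RAG1 read 4221, 3640 and 4804 against 7527, 7141 and 9128 (log2 fold change 0.91 ± 0.14), and ID1 read 772, 946 and 845 against 188, 304 and 137 (log2 fold change -2.09 ± 0.30). TCF7 read 149314, 143277 and 157811 against 172283, 176687 and 174740 and did not pass (adjusted p = 0.0724), and LMO2 was low and variable (adjusted p = 0.16). The 4 lower genes were ID1, RUNX3, MYB and TCF3, and 2 passed without GSI 48 h library 1 or DMSO 12 h library 2.

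Receptors for chemokines and interleukins were higher in 8 of 18 cases and IL7R, whose call was among the least firm, was lower (median 0.42). CCR4 (ENSG00000183813), a homing receptor, rose most of all genes by the naming rule, from 7.96, 4.995 and 7.07 to 381, 232 and 233 (log2 fold change 5.18 ± 0.42, adjusted p = 4.54e-06). CCR2, a chemokine receptor outside the list, read 21.2, 6.99 and 9.72 against 391, 387 and 298 (log2 fold change 4.85 ± 0.33). Both were near the minimum of 10 in solvent and far above it in every inhibitor library. CCR9, which guides thymocytes and gut T cells and was already abundant, read 12372, 15975 and 13433 against 38831, 40286 and 58458 (log2 fold change 1.70 ± 0.25), and CCR7 rose by 0.88 ± 0.13. IL2RB and CCR8 did not pass (adjusted p = 0.0829 and 0.0864). The higher count was 5 without GSI 48 h library 1 or DMSO 12 h library 3.

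Immediate early genes and NF-kappaB feedback genes were higher in 12 of 29 cases and lower in 3 (median 0.45). EGR2, a zinc finger factor induced by receptor signalling, read 12.4, 6.99 and 3.54 against 113, 77.9 and 142 (log2 fold change 3.79 ± 0.60), and EGR3 read 6.19, 7.99 and 8.84 against 62.4, 88.3 and 79.8 (log2 fold change 3.16 ± 0.33). NR4A1, an orphan nuclear receptor of the same early response, read 85.8, 92.9 and 86.6 against 387, 341 and 444 (log2 fold change 2.12 ± 0.21). The groups were apart in all 3 genes, and the EGR genes were near the minimum of 10 in solvent. The 3 lower genes were FOSL1, FOSL2 and NFKBIA. RASGRP1, which activates RAS below the T-cell receptor, was among the abundant genes that rose most, at 4162, 2400 and 2824 against 13397, 12896 and 16717 (log2 fold change 2.23 ± 0.20). FOSB and DUSP10 did not pass (adjusted p = 0.053 and 0.0516).

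Cytokine signalling genes of the JAK, STAT, SOCS and PIM families were higher in 9 of 15 cases, 5 of them without GSI 48 h library 3, and PIM3 was lower (median 0.55), 1 of 3 lower without DMSO 12 h library 3. PIM1, a survival kinase, read 1534, 1199 and 1466 against 3050, 2691 and 3546 (log2 fold change 1.14 ± 0.15). STAT3 rose by 0.55 ± 0.11, and STAT4 and JAK3 did not pass (adjusted p = 0.0688 and 0.199). Cytotoxic and NK-type genes were higher in 2 of 9 cases and lower in 4, or 2 without DMSO 12 h library 1 (median -0.78). KLRB1, a lectin receptor, read 103, 108 and 62.8 against 516, 326 and 525 (log2 fold change 2.31 ± 0.37), and GZMA, a granule protease, read 78.7, 49.95 and 36.2 against 5.09, 7.42 and 6.65 (log2 fold change -2.86 ± 0.38). EOMES, a T-box factor of cytotoxic cells, fell by 1.13 ± 0.17, and GNLY and FASLG did not pass (adjusted p = 0.13 and 0.0927).

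The remaining rises by the naming rule were spread over unlike genes. LSP1, an actin-binding protein of lymphocytes, read 10.6, 0 and 4.42 against 300, 21.5 and 108 (log2 fold change 4.51 ± 0.97). PPFIA4, a liprin, read 79.6, 76.9 and 58.3 against 5057, 405 and 946 (log2 fold change 4.12 ± 0.74), FGFBP2 read 18.6, 1.998 and 6.19 against 643, 30.4 and 114 (log2 fold change 4.14 ± 0.96) and CDHR1, a cadherin relative, read 22.1, 26.98 and 2.65 against 1031, 135 and 99.8 (log2 fold change 4.18 ± 1.00). These 4 genes differed several-fold among the inhibitor libraries. KRT1, a keratin, and COL6A1, a collagen chain, were steadier, at 204, 192 and 126 against 2390, 1551 and 1886 and 10.6, 5.99 and 7.07 against 137, 55.7 and 185 (log2 fold changes 3.48 ± 0.42 and 3.71 ± 0.45). Among genes with a mean of at least 10000, IL32, a cytokine, read 2228, 3018 and 2050 against 18216, 4956 and 12592 (log2 fold change 2.12 ± 0.38), and CDH24, a cadherin, read 2404, 3149 and 2054 against 10216, 8869 and 11055 (log2 fold change 2.0 ± 0.17).

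Metabolic and stress programmes gave mixed counts. Cholesterol and fatty acid genes were higher in 7 of 24 cases (median 0.16). FASN was lower, a call lost with no filter on low values, under upper-quartile scaling and without the 4 libraries numbered 2. It was also lost without DMSO 12 h library 1 or 2 or any 1 of the GSI 48 h libraries. SCD, the stearoyl desaturase, read 23726, 28810 and 24781 against 66214, 50233 and 63698 (log2 fold change 1.21 ± 0.13), and SREBF1, the factor that induces it, rose by 1.14 ± 0.11. ACLY and SREBF2 did not pass (adjusted p = 0.122 and 0.134). Of 18 genes of the ATF4 amino acid response, 0 passed in limma, 3 were higher before adjustment at 0.05, and edgeR and DESeq2 each called 1. Within GSI 48 h the list was high in library 3, with a median of 0.80 there against -0.55 and -0.38 in libraries 1 and 2. PCK2 read 1434, 1553 and 1987 against 2951, 2606 and 6931 and VLDLR 1117, 1300 and 1156 against 2516, 1480 and 4856 (adjusted p = 0.0614 and 0.0828). Autophagy and lysosome genes were higher in 5 of 23 cases (10 under upper-quartile scaling), beside 15.8% of all genes, and 1 was lower, SQSTM1. The SQSTM1 call was lost with no filter on low values, under upper-quartile scaling and without the 4 libraries numbered 2. It was also lost without DMSO 12 h library 1 or 2 or GSI 48 h library 1 or 3. The higher ones included GABARAPL1 at 0.74 ± 0.13, CTSB at 0.65 ± 0.12 and NPC1 at 0.46 ± 0.10, while TFEB and ATG5 did not pass (adjusted p = 0.0656 and 0.0864).

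Targets of p53 were higher in 6 of 18 cases and lower in 4 (median 0.16), beside 15.8% and 18.4% of all genes tested. BTG2, given above, and RRM2B, a subunit of ribonucleotide reductase, rose, the latter by 0.64 ± 0.09. AEN, an apoptosis nuclease, read 6382, 7904 and 7325 against 2547, 3573 and 2720 (log2 fold change -1.30 ± 0.18). TNFRSF10B and ZMAT3 did not pass (adjusted p = 0.0639 and 0.123). In the BCL2 family 3 of 15 genes were higher and 3 lower, near the 15.8% and 18.4% of all genes tested, and 1 was higher without GSI 48 h library 1 or DMSO 12 h library 2. BIK, a killer member, rose by 1.00 ± 0.23, and PMAIP1 and BID, of the same type, fell by 0.76 ± 0.17 and 0.54 ± 0.13. BCL2L1, a survival member, and BAK1 did not pass (adjusted p = 0.0538 and 0.234).

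Interferon-stimulated genes were higher in 4 of 29 cases and lower in 6, near the 15.8% and 18.4% of all genes tested (median -0.09, or 0.04 under upper-quartile scaling), and 3 were lower without DMSO 12 h library 2 or GSI 48 h library 3. STAT2 and IRF9, which form the factor that drives these genes, rose by 0.79 ± 0.08 and 0.99 ± 0.18, and IRF1 fell by 0.85 ± 0.18. XAF1 and RIGI did not pass (adjusted p = 0.136 and 0.161). In antigen presentation on MHC class I, TAP2, a peptide pump, and PSMB10, an immunoproteasome subunit, fell by 0.71 ± 0.14 and 0.62 ± 0.15 and HLA-E rose by 0.80 ± 0.16. ERAP1 did not pass (adjusted p = 0.054), and HLA reads may be split between similar genes. The class I list had 4 of 15 genes lower, or 2 under upper-quartile scaling or without DMSO 12 h library 1 or 2 or GSI 48 h library 1 or 3. Clock genes were higher in 7 of 16 cases and lower in 2, with BMAL1 up by 0.74 ± 0.11 and PER2 down at -0.68 ± 0.11. HLF and BMAL2 did not pass (adjusted p = 0.0973 and 0.117). The count of higher clock genes was 4 without GSI 48 h library 1 and 3 without DMSO 12 h library 2, DMSO 12 h library 3 or GSI 48 h library 3. Histone demethylase and PRC2 genes were higher in 6 of 18 cases (10 under upper-quartile scaling), among them JARID2 at 0.52 ± 0.08, KDM5B at 0.97 ± 0.20 and KDM6B at 0.84 ± 0.18, while EZH1 and KDM5A did not pass (adjusted p = 0.0524 and 0.0755).

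LINC01120 read 272, 685 and 614 against 21.6, 21.5 and 19.95 (log2 fold change -4.47 ± 0.36, adjusted p = 4.40e-06), with a solvent range far above the inhibitor range. LINC02763 and LINC01694 read 109, 143 and 116 against 5.09, 24.5 and 14.6 and 422, 576 and 448 against 81.5, 53.4 and 58.5 (log2 fold changes -3.19 ± 0.42 and -2.89 ± 0.23). LINC01483 read 77.8, 81.9 and 60.997 against 3.82, 12.6 and 14.6 (log2 fold change -2.88 ± 0.60). Among the rises, LINC00887 read 25.7, 12.99 and 18.6 against 199, 133 and 185 (log2 fold change 3.14 ± 0.39) and MRPL23-AS1 read 6.19, 12.99 and 27.4 against 159, 31.2 and 213 (log2 fold change 2.86 ± 0.71). LINC01819 read 4.42, 1.998 and 3.54 against 106, 5.20 and 87.8 and was carried by libraries 1 and 3, with an adjusted p of 0.0138 that became 0.0724 without GSI 48 h library 1, 0.0663 without library 3 and 0.0508 without DMSO 12 h library 2. MRPL23-AS1 is antisense to a coding gene, and since use of strand is not given, reads of the 2 cannot be told apart. On the list of leukaemia and T-cell long RNAs, 5 of 16 were higher and 3 lower. HOTAIRM1 rose by 1.07 ± 0.22, and PVT1, the neighbour of MYC, and MIR155HG fell by 1.00 ± 0.17 and 0.86 ± 0.20. TUG1 and CRNDE did not pass (adjusted p = 0.176 and 0.0915). The higher count was 2 without DMSO 12 h library 2 and 3 without GSI 48 h library 1 or 3.

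Markers of other cell types were mixed. Defining markers were at 0 in all 12 libraries for B cells (MS4A1), myeloid cells (ELANE, CD33 and FCGR3A), NK cells (NCR1), epithelium (EPCAM and KRT19) and endothelium (PECAM1). Summed myeloid markers ran from 397 to 543 in DMSO 12 h and 201 to 229 in GSI 48 h, and of the 3 of 8 kept, ITGAM and CD14 were lower. CD14 read 33.6, 28.97 and 24.8 against 10.2, 21.5 and 15.96 and lost its call in most other settings. Summed erythroid markers ran from 6.19 to 15.9 and 27.5 to 62.5, with ALAS2 the only 1 of 6 kept and higher at 2.02 ± 0.48. Summed NK markers ran from 265 to 479 and 215 to 256 with KLRD1 lower, and summed epithelial markers from 49.0 to 74.3 and 24.2 to 45.3 with CDH1 lower, of 3 of 4 and 2 of 5 kept. Without GSI 48 h library 1 or DMSO 12 h library 2, KLRD1 and CDH1 did not pass (adjusted p = 0.0543 to 0.14). Summed B-cell markers ran from 673 to 2533 and 861 to 951 (2 of 7 kept, CD79A and BLNK, adjusted p = 0.261 and 0.869), and fibroblast markers from 8.99 to 25.7 and 7.98 to 28.0 (1 of 6 kept). The part of such cells in the results was not tested.

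The libraries labelled GSI 12 h and DMSO 48 h each share 1 label with either outer group, so their levels were set beside the contrast. These differences use the same DMSO 12 h and GSI 48 h libraries, and the values are a description with no test. A gene's position was taken as the share of the log2 difference from DMSO 12 h to GSI 48 h that a group mean had covered. Over the 2044 genes that differed at least 2-fold, both of these group means lay between the outer means for 1528 (74.8%). The libraries labelled GSI 12 h lay nearer to GSI 48 h while DMSO 48 h lay nearer to DMSO 12 h in 1008 genes (49.3%), the reverse held in 411 (20.1%), both were nearer to GSI 48 h in 359 (17.6%) and both nearer to DMSO 12 h in 266 (13.0%). Among the 1220 higher genes these counts were 689, 168, 231 and 132, and among the 824 lower genes 319, 243, 128 and 134.

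Gene groups differed in which of these libraries resembled GSI 48 h. Over all 6602 genes that passed, GSI 12 h alone was nearer to GSI 48 h in 52.5%, DMSO 48 h alone in 15.7% and both in 20.4%. The counts below are to be read against these shares. Of the 15 NOTCH1 targets that passed, 12 had DMSO 48 h alone nearer to GSI 48 h. NRARP, for example, read 16831, 25383 and 23575 (labelled GSI 12 h) and 3186, 3564 and 2340 (labelled DMSO 48 h), and MYC read 16713, 17487 and 22428 (labelled GSI 12 h) and 11743, 13159 and 12150 (labelled DMSO 48 h). NOTCH1 itself was the 1 target with GSI 12 h alone nearer to GSI 48 h than to DMSO 12 h. Its GSI 12 h mean lay beyond that of GSI 48 h, at 112572, 122679 and 139943 (labelled GSI 12 h) and 200991, 202915 and 186130 (labelled DMSO 48 h). All 6 GIMAP genes had DMSO 48 h alone nearer, GIMAP5 reading 1637, 2648 and 2746 (labelled GSI 12 h) and 1079, 1201 and 679 (labelled DMSO 48 h), as did 48 of the 60 cytosolic ribosomal protein genes that passed and 8 of the 16 T-lineage factor genes that passed, such as GATA3 at 10148, 9636 and 9623 (labelled GSI 12 h) and 17080, 15357 and 17412 (labelled DMSO 48 h).

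The hypoxia list was the reverse. Of its 16 genes that passed, 15 had GSI 12 h alone nearer to GSI 48 h, and BNIP3 read 11539, 2317 and 11408 (labelled GSI 12 h) and 1071, 936 and 1499 (labelled DMSO 48 h). All 8 glycolysis genes that passed and 14 of 16 chaperones did the same. For MIR210HG the libraries labelled GSI 12 h had a higher mean than GSI 48 h, with overlapping values, at 6332, 1782 and 3437 (labelled GSI 12 h) and 214, 134 and 267 (labelled DMSO 48 h). Ribosome biogenesis lay between, with 11 of 33 genes nearer to GSI 48 h in both groups, 20 in GSI 12 h alone and 2 in DMSO 48 h alone. GSI 12 h alone was also the commonest case among all genes that passed (52.5%). RRP12 read 2519, 3563 and 2249 (labelled GSI 12 h) and 3683, 3521 and 3964 (labelled DMSO 48 h). Among the genes nearer to DMSO 12 h in both groups were EGR2 at 12.6, 1.27 and 9.40 (labelled GSI 12 h) and 23.01, 11.04 and 12.3 (labelled DMSO 48 h), EGR3 at 15.5, 15.2 and 8.06 (labelled GSI 12 h) and 9.52, 16.9 and 13.5 (labelled DMSO 48 h), and RAG1 at 2943, 2699 and 3142 (labelled GSI 12 h) and 3466, 4077 and 4971 (labelled DMSO 48 h). TBX18, which fell, also had both groups nearer to DMSO 12 h, at 399, 454 and 805 (labelled GSI 12 h) and 900, 544 and 357 (labelled DMSO 48 h). Levels of NOTCH1 targets went against the agent named in the labels of these 2 groups, and whether the labels were exchanged was not tested.

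**Figure D5:**
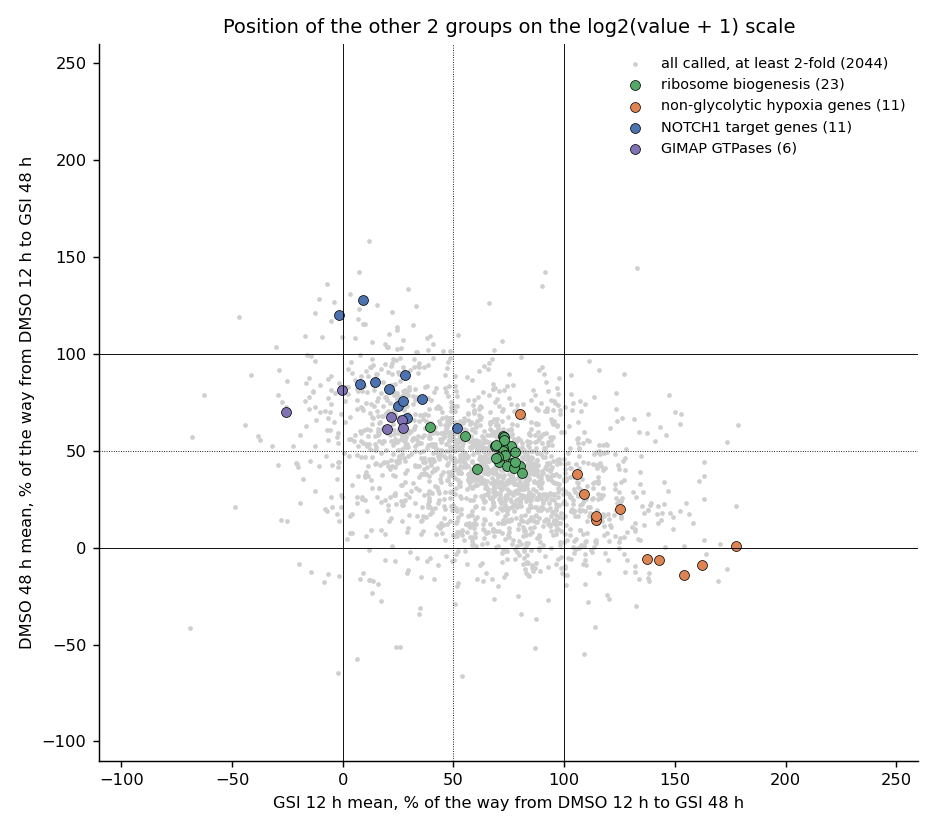
Position of the GSI 12 h mean (x axis) and the DMSO 48 h mean (y axis) in percent of the way from DMSO 12 h (0) to GSI 48 h (100) on the log2(value + 1) scale, for 2044 genes that differed at least 2-fold. NOTCH1 targets and GIMAP genes lie high and to the left, hypoxia genes low and to the right, and ribosome biogenesis genes in between, and dotted lines mark 50%.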

How the data were processed

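Poly-A RNA of CUTLL1 cells was sequenced in 4 labelled groups of 3 libraries. The deposited signal is a normalised read count per Ensembl gene, that is reads divided by 1 size factor a library. Per the submitters' processing notes, FastQC 0.10.1, TopHat2 2.0.10, HTSeq 0.6.1, DESeq2 and the build hg19 were used. No source used here gives their settings, the annotation or the use of strand. In every library 100% of values gave whole reads within a tolerance of 0.01, and totals ran from 73939612 to 160702764 reads, so that counting error was small except for scarce genes.

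Genes with at least 10 in at least 3 of 12 libraries were kept. Values were tested as log2(value + 1) in limma 3.58.1 (R 4.3.3) with a trended prior, group means and all 12 libraries, after a check on simulated data. Benjamini-Hochberg adjustment ran over all 19281 genes, and a gene passed at an adjusted p under 0.05. Fold changes on this scale understate those of low genes, and each ± beside one is a standard error. As alternatives, the pseudocount, filter, scaling, replicate term and libraries were varied, and edgeR 4.0.16, DESeq2 1.42.0 and limma-voom were run on the recovered reads. Symbols came from the table for 18259 kept genes, and GENCODE 29 gave the class of 18344.

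Named genes were the 12 largest rises and falls among genes with a mean of at least 100, the 6 each way with a mean of at least 10000, the 4 long non-coding ones each way with a mean of at least 50, every NOTCH1 target, and up to 3 passing and 2 other genes of smallest p from each list. The rises and falls, including the abundant and long non-coding ones, were taken only from genes that passed, carried a symbol and had groups without overlap. Not each named gene is described. Genes named only to spell out a small count, such as QARS1, TOB1, FASN and SQSTM1, were chosen after their values were seen. The genes compared and all lists were chosen with earlier results of these data known.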

Additional observations from a re-analysis of the deposited data

How the results depend on the processing

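The number of genes that passed stayed within 1.5 times of 6602 under both other pseudocounts (6585 and 6620), no filter (5828), a filter at 50 (6022), only the 6 libraries compared (6502), upper-quartile and TMM scaling (6804 and 6591), edgeR (6556), DESeq2 (7048), limma-voom (6348) and without the 4 libraries numbered 2 (5547). Leaving out 1 library gave 4245 to 6980 genes in all, 1897 to 3253 higher, 2325 to 3740 lower and 1533 to 2450 of at least 2-fold. Among these the totals without GSI 48 h library 1 (4245 in all, 1897 higher, 2348 lower) and the lower count without DMSO 12 h library 2 (2325) moved by over 1.5 times, with fewer samples in the fit.

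With a replicate block 8823 genes passed, or 7353 in the 6 libraries compared. Libraries of equal number deviated together with r = 0.0991, 0.197 and 0.118 over genes, not all over 0.1, so the numbers were not taken to pair them, although each library correlated best with its own number. Under the block, 11 synthetase, 14 respiratory chain and 16 G1/S genes were lower.

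Of 142 named genes that passed, 132 did so in all 25 settings and 0 reversed. The others were CD14, CDH1, E2F2, GINS2, IL7R, KLRD1, LINC01819, NOTCH1, SLBP and TTK. Of named genes that did not pass, 9 changed sign in some setting, and the cause was not tested. Leaving out 1 library gave ranges of -1.17 to 0.28 for DCN, -0.77 to 0.37 for NCAM1, -0.46 to 0.17 for BLNK, -0.23 to 0.045 for HEYL, -0.14 to 0.22 for KRT8, -0.31 to 0.55 for KLRF1 and -0.085 to 0.42 for LYZ. Without the 4 libraries numbered 2, NCAM1 was 0.76, EEF2 0.011, BLNK 0.29 and HEYL 0.15. Under upper-quartile scaling HEYL was 0.027 and TAF1B 0.042. Depth limits the folds of genes with values under about 10, such as HEY1 and ACY3 in the inhibitor libraries and LSP1 and MAML2 in the solvent libraries.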

Other observations

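Gene families outside the lists, taken by symbol after the data were seen, moved in both directions. Of 456 kept genes named ZNF with a number, which encode zinc finger proteins, 80 were higher and 68 lower in GSI 48 h by limma, and 146 and 39 under upper-quartile scaling. Without single libraries the ZNF counts fell to as few as 42 higher and 30 lower. Potassium channel genes were higher in 9 of 46 cases and lower in 8, or 5 without GSI 48 h library 3. T-box and forkhead factor genes were higher in 7 of 27 cases and lower in 7, or 3 lower without GSI 48 h library 1 or DMSO 12 h library 2 and 4 without DMSO 12 h library 1. Carriers of the mitochondrial inner membrane (SLC25 genes) were higher in 6 of 42 cases and lower in 12, but 11 and 7 under upper-quartile scaling, and 6, 4 and 5 were lower without GSI 48 h library 1, DMSO 12 h library 2 and GSI 48 h library 3. Semaphorin and plexin genes were higher in 5 of 19 cases and lower in 2, or 1 lower without DMSO 12 h library 2 or GSI 48 h library 3. Integrin genes were higher in 3 of 24 cases, or 5 without GSI 48 h library 2, and lower in 4, or 2 without GSI 48 h library 3. The shares are to be read against the 15.8% of all genes that were higher and the 18.4% that were lower.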
